A study of Mus musculus with 6 samples.

Results

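The 10 genes described here belong to the bone morphogenetic protein (BMP) pathway and were followed in RNA-seq of the mouse tailbud. They are the ligands Bmp2, Bmp4, Bmp5 and Bmp7, and the response genes Id1, Id2, Id3, Msx1, Msx2 and Smad6. The rule lists them by name and sets no threshold on their values, and they are 10 of the 35506 genes of the table. The tissue was the tailbud with its presomitic mesoderm, cut from E8.5 embryos with 8 somites on the FVB/NJ strain. The 3 wild-type embryos (WT, Smchd1+/+) were compared with 3 MommeD43 homozygotes, which carry a missense change in Smchd1 recovered from a chemical mutagenesis screen, and each embryo gave 1 library. The allele is inherited, so it is not limited to the tailbud. Replicate 1 of either genotype was a male embryo, the other replicates were females. The 2 males had the same mother and the 4 females had 4 different mothers. SMCHD1 is a chromatin protein that takes part in X inactivation and in silencing of gene clusters, and the comparison asks how a changed SMCHD1 alters expression in tissue that builds the trunk and tail.

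BMP ligands are secreted dimers that bring together type I and type II receptor kinases. The receptors phosphorylate SMAD1, SMAD5 and SMAD9, which enter the nucleus with SMAD4 and switch on direct targets such as the Id genes, the Msx genes and the inhibitory Smad6. In the posterior embryo, BMP signaling is known for ventral and lateral mesoderm fate, for the allantois and for induction of germ cells, and it is held down towards the midline by secreted antagonists such as Noggin.

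All 10 genes passed the filter on low reads, and none differed between genotypes at an adjusted p under 0.05 (limma, Benjamini-Hochberg adjustment over 13617 autosomal genes). Of all genes tested, 0% were called at that threshold. The adjusted p was 0.999 for each of the 10 genes. Levels were higher in MommeD43 for 7 of them and lower for 3, with log2 fold changes from -0.06 to 0.17 and a median of 0.03, against a median of 0.003 over all genes tested. Bmp4 alone had an unadjusted p under 0.05 and groups that did not overlap. Unadjusted p-values fell under 0.05 for 2.4% of all genes (327 genes), and groups did not overlap for 7.08%, and 1 of 10 genes is near that last share.

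Levels are given in RPKM, reads of a gene scaled to its exon length and to the size of the library, and fold changes as MommeD43 minus WT on the log2 RPKM scale. Library totals ranged from 10957916 to 47298348 reads. They were inferred from the level of a gene without a read, taken as 0.9 read, and all read numbers given here rest on them. Smchd1 itself was at 8.07 ± 0.672 RPKM in WT and 7.58 ± 0.4 in MommeD43 (SD, n = 3), which does not test the label because a missense allele is still transcribed. The tailbud label was borne out by its markers: T, which encodes Brachyury, was at 117 to 188 RPKM in each library, and Msgn1 and Tbx6 reached at least 76.2 and 32.2 RPKM. Somite markers were low. Uncx was without a read in each library, Meox1 was at 1.2 to 1.75 RPKM, and the summed 5 somite markers came to 1.77 to 2.5 RPKM. Other tissues were present in varying amounts. Summed markers of primitive blood ranged from 5.47 to 469 RPKM in WT and from 13.4 to 208 in MommeD43, and those of yolk sac and visceral endoderm from 104 to 209 and from 26.6 to 341.

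**Figure D1:**
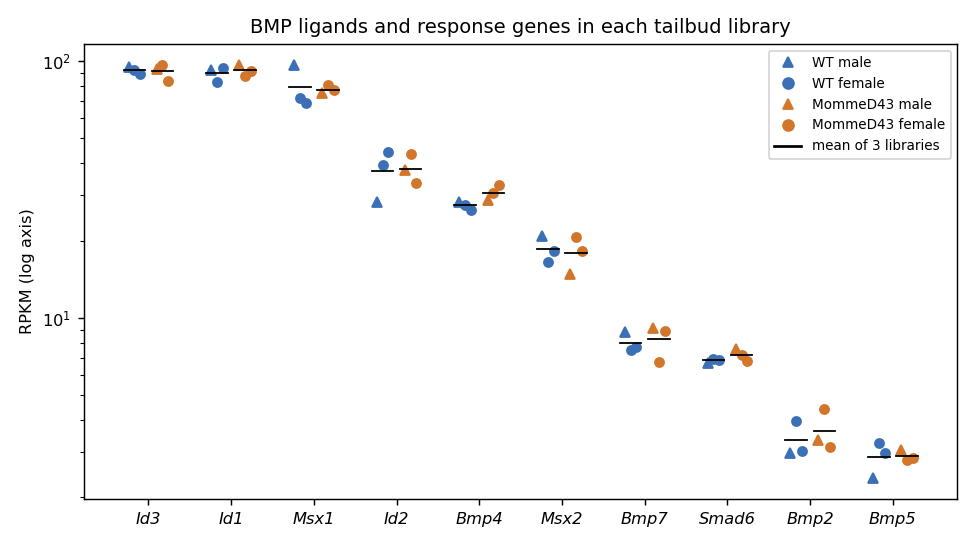
RPKM on a log axis of the 10 genes in each library, ordered by mean level, with triangles for males, circles for females and a bar for the mean of 3 libraries of a genotype. The WT and MommeD43 points overlap for every gene other than Bmp4, and the WT male lies apart in Msx1 (96.6 RPKM) and Id2 (28.3 RPKM).

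Per exon length, the response genes Id3, Id1, Msx1 and Id2 had higher means than the 4 ligands. Msx2 and Smad6 had lower means than Bmp4, and Smad6 also than Bmp7. Id3 had the highest mean over 6 libraries, at 91.6 RPKM, followed by Id1 at 91 and Msx1 at 78.3. Id2 was at 37.7, Bmp4 at 29.1, Msx2 at 18.2, Bmp7 at 8.12, Smad6 at 7, Bmp2 at 3.48 and Bmp5 at 2.88. Neighbours in this order whose ranges overlapped were Id3 and Id1, Id1 and Msx1, Id2 and Bmp4, Bmp7 and Smad6, and Bmp2 and Bmp5. Within libraries, Id2 was above Bmp4 in 6 of 6, Bmp2 was above Bmp5 in 6 of 6, and Id3 was above Id1 in 3 of 6. Some of these gaps were within counting error. In WT replicate 1, Id2 was at 28.3 and Bmp4 at 28.2 RPKM. In WT replicate 3, Bmp2 was at 3.03 and Bmp5 at 2.97, and in both cases the exact 95% counting intervals overlapped. Bmp4 was thus the most abundant of the 4 ligands in each library, with no overlap with the other ligands.

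The letters through which SMADs are known to bind DNA were looked for in the promoters of these genes, to show what sequence stands in front of them. RefSeq promoters of GRCm38.p6 (250 bases before the start to 50 after) were matched for 7 of the 10 genes. Bmp2, Bmp7 and Id1 had no entry. Both strands were searched for the GC-rich element GGCGCC, its longer form TGGCGCC, the SMAD box CAGAC and the palindrome GTCTAGAC. TGGCGCC contains GGCGCC, and the other motifs do not contain each other. The windows of Id3, Smad6, Id2 and Bmp4 are shown from 250 bases before the start to 10 after, read 5′ to 3′ along the gene, the first 3 because they are response genes with a match and Bmp4 because its groups did not overlap. Capitals mark matches.
Id3 (chr4:136143572-136143831, plus strand): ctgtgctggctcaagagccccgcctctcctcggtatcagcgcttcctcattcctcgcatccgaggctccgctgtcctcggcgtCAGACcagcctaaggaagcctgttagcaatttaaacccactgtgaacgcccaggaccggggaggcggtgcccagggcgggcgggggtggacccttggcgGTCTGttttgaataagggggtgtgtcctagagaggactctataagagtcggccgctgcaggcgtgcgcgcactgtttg
Smad6 (chr9:64022050-64022309, minus strand): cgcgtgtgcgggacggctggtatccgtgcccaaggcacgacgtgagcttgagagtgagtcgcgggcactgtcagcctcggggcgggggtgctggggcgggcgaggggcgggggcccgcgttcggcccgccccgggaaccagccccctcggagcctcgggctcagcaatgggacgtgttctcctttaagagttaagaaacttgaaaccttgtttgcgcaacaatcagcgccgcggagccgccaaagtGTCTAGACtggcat
Id2 (chr12:25096083-25096342, minus strand): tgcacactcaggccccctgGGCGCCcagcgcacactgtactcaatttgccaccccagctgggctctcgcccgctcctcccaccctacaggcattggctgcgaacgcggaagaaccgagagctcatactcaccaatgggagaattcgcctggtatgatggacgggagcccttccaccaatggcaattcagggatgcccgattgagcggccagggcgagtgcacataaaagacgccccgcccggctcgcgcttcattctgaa
Bmp4 (chr14:46390660-46390919, minus strand): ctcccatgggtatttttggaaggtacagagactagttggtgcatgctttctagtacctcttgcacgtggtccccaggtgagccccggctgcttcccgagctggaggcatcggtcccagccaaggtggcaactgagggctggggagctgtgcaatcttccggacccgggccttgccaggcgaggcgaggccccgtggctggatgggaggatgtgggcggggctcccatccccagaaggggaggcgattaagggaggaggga

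In Id3 the CAGAC box stands at -167 and, on the other strand as GTCTG, from -68, and in Smad6 the palindrome spans positions -4 to 4 around the start. Id2 holds GGCGCC at -231. Bmp5, not shown, holds CAGAC at -134, and Bmp4, Msx1 and Msx2 hold none of these letters in this window. Over all 32851 promoters of the same length, CAGAC was found in 49.6%, GGCGCC in 11.9%, TGGCGCC in 4.03% and GTCTAGAC in 0.213%. A match is a description of the letters only, since binding was not measured. The RefSeq starts of Id2 and Id3 lie inside the gene intervals of the table (chr12:25093799-25097140 and chr4:136143497-136145755), so these windows overlap annotated gene sequence.

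Among the ligands, Bmp4, the main BMP of the posterior mesoderm and allantois, was at 28.2, 27.6 and 26.4 RPKM in WT and at 28.8, 30.6 and 32.9 in MommeD43. The groups did not overlap, yet the highest WT library and the lowest MommeD43 library, the 2 males, were close to each other. Their exact 95% counting intervals, 27.1 to 29.4 and 26.7 to 31, overlapped. Means were 27.4 ± 0.952 and 30.8 ± 2.06 RPKM (SD, n = 3), a log2 fold change of 0.17 ± 0.06 (SE) or 1.12-fold, with a 95% interval of 1.01 to 1.24. The unadjusted p was 0.0316 and the adjusted p 0.999 (limma). MommeD43 was the higher group without overlap for 3.53% of all genes. Leaving out single libraries gave log2 fold changes from 0.12 to 0.21, with unadjusted p from 0.0138 to 0.11 and adjusted p of at least 0.695 (limma). The unadjusted p was above 0.05 without WT replicate 2 or 3 and without MommeD43 replicate 2 or 3. Bmp4 lies at chr14:46383520-46390669 (GRCm38, minus strand), and 3.96% of its exon bases are overlapped by the antisense gene Gm15222.

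Beside Bmp4, germ cell markers were the only marker list of 10 whose sums did not overlap between genotypes. The 4 genes Dppa3, Nanos3, Prdm1 and Dnd1 summed to 6.54 to 9.09 RPKM in WT and 9.52 to 12.4 in MommeD43, and 3 of them passed the filter. Within the list, Dppa3 (3.24 to 4.32 RPKM in WT, 4.6 to 6.6 in MommeD43) and Dnd1 did not overlap, whereas Prdm1 (2.18 to 3.09 and 2.4 to 3.07) and Nanos3 did. Nanos3 had no read in WT replicate 3. Of single genes, 7.08% did not overlap. A sum over 4 genes is an unlike measure, and no such share was computed for sums of lists. Markers of lateral mesoderm and allantois summed to 138 to 157 RPKM in WT and 139 to 163 in MommeD43. The highest sum was in MommeD43 replicate 3, the library with the highest Bmp4. WT replicate 2 had a sum of 157 with Bmp4 at 27.6 RPKM, and MommeD43 replicate 1 had 139 with Bmp4 at 28.8. MommeD43 replicate 3 also had the highest sums of surface ectoderm (216) and germ cells (12.4). Krt18 made up 182 of the 216 RPKM of surface ectoderm. Tfap2a (2.43) and Tfap2c (3.59) were also highest in that library, whereas Wnt6 (17.7), Grhl3 (9.1) and Trp63 (0.838) were not. The part of these tissues in the Bmp4 values was not tested. In bulk tissue, more or fewer cells of a type and more or less RNA per cell cannot be told apart, here and for the other genes.

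Bmp2, a ligand close in sequence to Bmp4, was low. It was at 2.98, 3.97 and 3.03 RPKM in WT and 3.34, 4.41 and 3.14 in MommeD43, from 130 to 742 reads. Replicate 2 was the highest library of each genotype and the groups overlapped. The log2 fold change was 0.12 ± 0.17, with a 95% interval of 0.831- to 1.43-fold (limma, adjusted p = 0.999).

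Bmp5 and Bmp7 belong to another branch of the ligand family and can act redundantly in the early embryo. Bmp5 was at 2.37, 3.24 and 2.97 RPKM in WT and 3.06, 2.79 and 2.83 in MommeD43, with the WT male lowest and the MommeD43 libraries inside the WT range. Its fold change was 1.02, with a 95% interval of 0.814 to 1.28. Bmp5 values are uncertain because 46.7% of its exon bases are overlapped by an antisense gene, Gm26903, and whether reads were counted by strand is not given in the sources used here. Bmp7 was at 8.83, 7.52 and 7.66 RPKM in WT and 9.11, 6.7 and 8.92 in MommeD43. The MommeD43 libraries held both the highest and the lowest value, and the fold change was 1.02 with an interval of 0.831 to 1.26.

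Id proteins lack a DNA-binding domain and block basic helix-loop-helix factors by pairing with their partners. Id1 was at 92.2, 83.3 and 94 RPKM in WT and 96.9, 87.9 and 91.4 in MommeD43. Id3 was at 95, 92.1 and 89 RPKM in WT and 92.8, 96.7 and 84 in MommeD43. For both genes the groups overlapped, and the whole spread over 6 libraries was 1.16-fold for Id1 and 1.15-fold for Id3. The 95% intervals of the genotype difference were narrow, 0.927- to 1.14-fold for Id1 and 0.895- to 1.09-fold for Id3.

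Id2 varied most among the 10 genes. It was at 28.3, 39.3 and 44.2 RPKM in WT and 37.6, 43.3 and 33.4 in MommeD43. All MommeD43 libraries lay inside the WT range, which ran from the WT male to WT replicate 3. The fold change was 1.03 with an interval of 0.8 to 1.34.

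The homeobox genes Msx1 and Msx2 encode transcriptional repressors and are classic BMP targets. Msx1 was at 96.6, 71.9 and 68.9 RPKM in WT and 74.9, 80.6 and 76.9 in MommeD43, so that the WT male stood above the other 5 libraries, which ran from 68.9 to 80.6. Without that library the log2 fold change of Msx1 was 0.14 rather than -0.01, the groups no longer overlapped, as for 3612 of the 13617 genes in that fit, and the adjusted p was 0.695 (limma). Msx2 was at 20.9, 16.5 and 18.2 RPKM in WT and 14.8, 20.7 and 18.2 in MommeD43, with the highest value in the WT male and the lowest in the MommeD43 male. The intervals of the genotype difference were 0.821- to 1.19-fold for Msx1 and 0.779- to 1.18-fold for Msx2.

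Smad6, which blocks the receptors and SMAD1 as negative feedback, was at 6.66, 6.93 and 6.87 RPKM in WT and 7.57, 7.15 and 6.79 in MommeD43. Only MommeD43 replicate 3 fell within the WT range. The log2 fold change was 0.07 ± 0.08, with an interval of 0.929- to 1.19-fold (limma, adjusted p = 0.999).

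**Figure D2:**
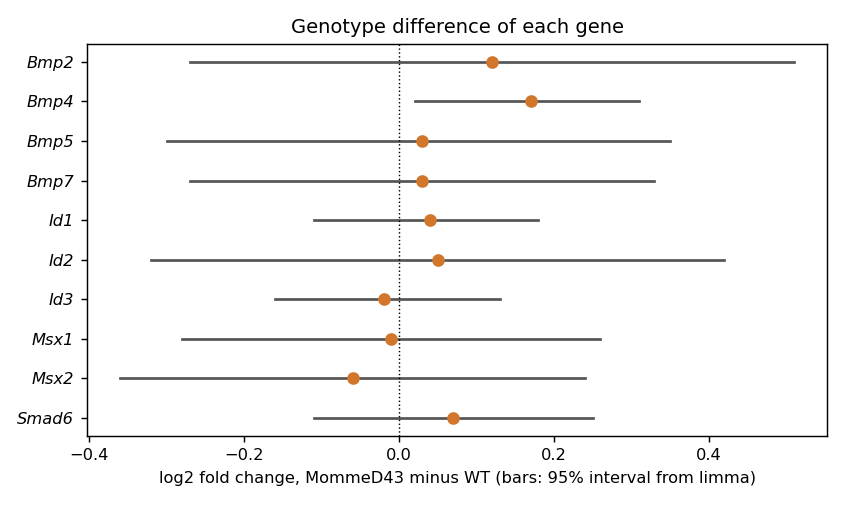
Log2 fold change of each gene, MommeD43 minus WT, as a point with its 95% interval from limma on 3 against 3 libraries. The interval of Bmp4 runs from 0.02 to 0.31 before adjustment for 13617 genes, and the intervals of the other genes span 0.

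The 10 genes differed in how much they varied among embryos of a genotype. Over all genes tested, the within-group SD of log2 RPKM had a median of 0.141 and quartiles of 0.0864 and 0.27. Smad6 (0.0594), Bmp4 (0.077), Id3 (0.0811) and Id1 (0.0832) were below the lower quartile. Id2, at 0.271, lay at the upper quartile and Bmp2, at 0.247, just under it. Smad6 and Bmp2 were both low genes, with 266 to 1084 and 130 to 742 reads. Counting error is part of their spread, and its share was not tested.

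**Figure D3:**
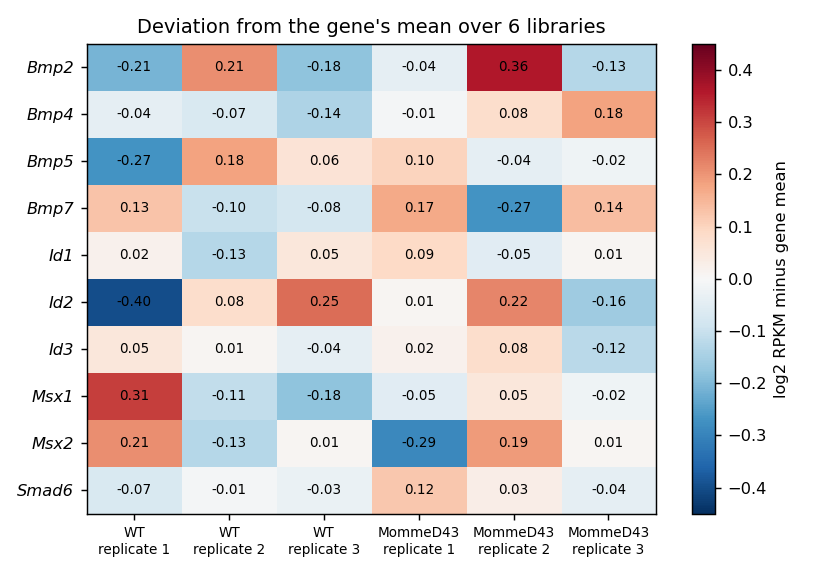
Deviation of log2 RPKM from the mean of the gene over 6 libraries, 1 row per gene and 1 column per library, with red above and blue below the mean. WT replicate 1 deviates most, from -0.40 in Id2 to 0.31 in Msx1, and the response genes do not deviate in 1 direction within a library.

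The response genes did not deviate together by library. In WT replicate 1, Msx1 and Msx2 were 0.31 and 0.21 above their means on the log2 scale whereas Id2 was 0.40 below (deviation -0.40), and Id1 and Id3 were within 0.05. WT replicate 1 also had the highest sum of the 10 tailbud markers, 683 RPKM against 465 to 579 in the other libraries. It had the lowest sums of lateral mesoderm and allantois (138), surface ectoderm (150) and endothelium (21.4). Every endothelial marker was lowest there, but the other lists were mixed. Hand2 (7.49), Foxf1 (32.7) and Prrx1 (1.69) were lowest in that library, whereas Tbx4 (23) was highest. Of the surface ectoderm list only Krt18, 119 of the 150 RPKM, was lowest there. In MommeD43 replicate 1, the other male, Msx2 was lowest (deviation -0.29) and the yolk sac sum highest (341 RPKM). The part of tissue makeup in these deviations was not tested.

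Because each genotype had 1 male, the genotype effect in the male pair was set against that in the females in a model with separate means for the 4 combinations. Over all genes, 37 (0.272%) differed at an adjusted p under 0.05 (limma) and 10.8% had an unadjusted p under 0.05. None of the 10 genes was called, and 3 had an unadjusted p under 0.05. Msx1 was lower in the MommeD43 male than in the WT male (log2 fold change -0.37) and slightly higher in the MommeD43 females (0.16), a difference of -0.53 ± 0.10 (SE). Its adjusted p was 0.141 (limma), and ranged from 0.0567 to 0.148 over 7 other settings. Msx2 had the same pattern, -0.50 in males and 0.16 in females, with a difference of -0.67 ± 0.15 (limma, adjusted p = 0.202). Id2 went the other way, 0.41 in males and -0.13 in females, with a difference of 0.54 ± 0.22 (limma, adjusted p = 0.446). With 1 male per genotype and a shared mother, sex, litter and the individual embryo cannot be told apart.

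**Figure D4:**
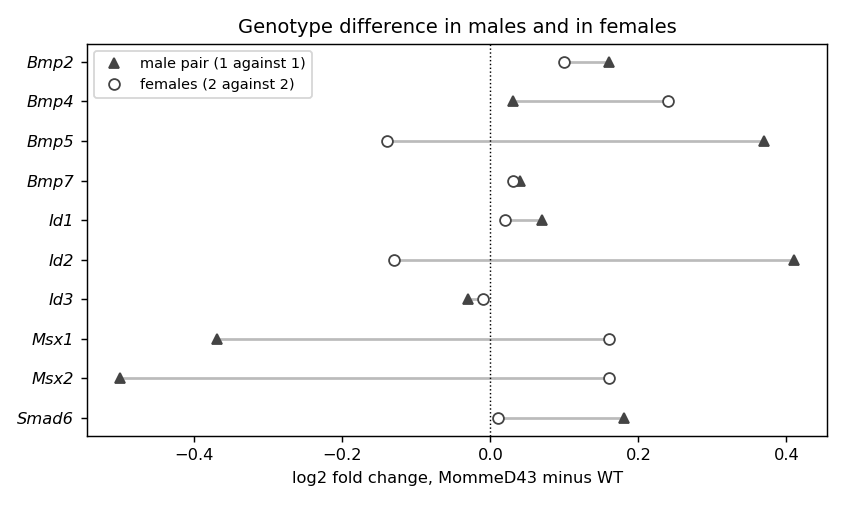
Log2 fold change, MommeD43 minus WT, of each gene for males (triangles, 1 library against 1) and females (circles, 2 against 2), joined by a line. The lines are longest for Msx2 (-0.50 and 0.16), Id2 (0.41 and -0.13) and Msx1 (-0.37 and 0.16), and short for Id1, Id3 and Bmp7.

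The rest of the pathway was read from a list of 59 further genes, of which 46 passed the filter and lay on autosomes. None was called at an adjusted p under 0.05 (limma), 19 were higher and 27 lower in MommeD43, and the median log2 fold change was -0.03. Nbl1 alone had an unadjusted p under 0.05 and groups that did not overlap. Of all autosomal genes tested, 2.4% had an unadjusted p under 0.05 (limma) and 7.08% had groups that did not overlap. Nbl1 as the only such gene among 46 is not above either share. The 13 genes not tested had too few reads or were X-linked (Bmp15 and Chrdl1): Bmp3, Bmp8a, Bmp10, Bmp15, Gdf2, Gdf5, Gdf7, Chrdl1, Chrdl2, Cer1, Sostdc1, Tll1 and Msx3.

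Of 10 other ligands only 3 were tested, and these were sparse. Gdf6 was at 0.731 ± 0.409 RPKM in WT and 0.892 ± 0.464 in MommeD43, and Bmp8b at 0.18 ± 0.0333 and 0.134 ± 0.0557, with as few as 3 reads in a library. Bmp6 had a mean of 0.363 RPKM. All 3 were thus below the least abundant of the 4 main ligands, Bmp5.

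Mean levels of receptors and co-receptors ranged from 0.26 to 29.6 RPKM. All 11 receptors and co-receptors were tested, with 5 higher and 6 lower in MommeD43 and log2 fold changes from -0.13 to 0.11. The type I receptor Bmpr1a was the most abundant, at 30.6 ± 1.8 RPKM in WT and 28.6 ± 2.18 in MommeD43. Of the other type I receptors, Bmpr1b was at 0.259 ± 0.134 and 0.262 ± 0.082 RPKM, and Acvr1 and Acvrl1 had means of 4.3 and 3.9 RPKM over the 6 libraries. Among type II receptors, Acvr2b was at 16.5 ± 1.69 and 15.1 ± 0.952 RPKM, a fold change of 0.917 with a 95% interval of 0.798 to 1.05.

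The 4 SMAD transducers had log2 fold changes from -0.24 to -0.00 and a median of -0.06, and none was called. Smad4, the common partner, was at 46.1 ± 1.72 RPKM in WT and 45.2 ± 1.21 in MommeD43, with an interval of 0.904- to 1.07-fold. Of the receptor-activated SMADs, Smad5 was the most abundant at 18.5 ± 1.5 and 17.3 ± 1.22 RPKM. Smad9 was low, at 2 ± 0.6 and 1.65 ± 0.314.

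Extracellular antagonists and modulators held the widest range, with 13 of 18 tested, 6 higher and 7 lower. Nbl1, a secreted antagonist of the DAN family, was at 0.564, 0.646 and 0.326 RPKM in WT and 1.35, 0.998 and 1.13 in MommeD43. All MommeD43 libraries were above all WT libraries, on 42, 31 and 11 reads against 30, 96 and 30. The log2 fold change was 1.23 ± 0.29, or 2.34-fold with an interval of 1.47 to 3.72, and the adjusted p was 0.999 (limma; unadjusted p = 0.00285). The log2 fold change was 1.26 in males and 1.21 in females, and 0.52 over all libraries with a pseudocount of 1 RPKM. Twsg1, which modulates BMP and Chordin binding, was the most abundant of the class and differed little, 21 ± 1.06 against 20.7 ± 0.646 RPKM. Kcp, a secreted modulator of BMP signaling, was at 0.92 ± 0.195 and 0.733 ± 0.159 RPKM, from 53 to 338 reads, with overlapping groups.

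The 7 intracellular and membrane inhibitors spanned log2 fold changes from -0.11 to 0.03, with 2 higher and 5 lower. The SMAD corepressor Ski was at 17.2 ± 0.729 RPKM in WT and 17.5 ± 0.701 in MommeD43, and its relative Skil at 5.54 ± 0.783 and 5.33 ± 0.169. The ubiquitin ligase Smurf2 was at 15.7 ± 1.24 and 14.6 ± 0.902. Of 9 other response genes, 8 were tested, with 5 higher and 3 lower. Hey1, a repressor of the Hairy family, was at 11.9 ± 0.458 and 12.8 ± 0.994 RPKM, and the homeobox gene Dlx5 at 1.43 ± 0.222 and 1.85 ± 0.49.

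**Figure D5:**
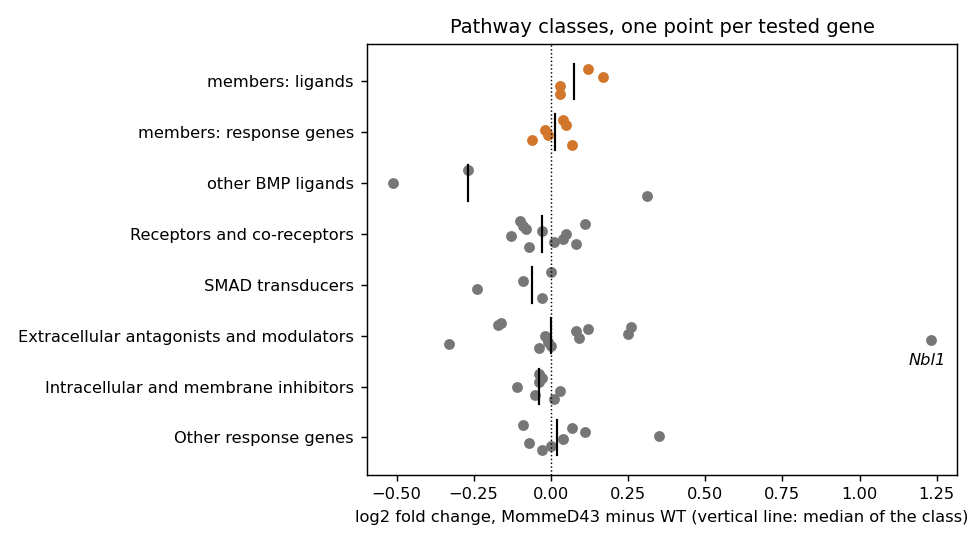
Log2 fold change, MommeD43 minus WT, of the 10 genes (orange) and of 46 other pathway genes (grey), 1 point per gene by class, with a vertical line at the median of the class. Most points lie near 0, and Nbl1 (1.23), which is low in RPKM, lies farthest to the right.

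As a description, the mean profiles of the response genes and of the ligands over 6 libraries were compared with every other tested gene. The response genes did not deviate together by library, so their mean does not stand for each of them. The genes most like the mean of the 6 response genes were Cdip1 (Pearson r = 0.997), Ecsit (0.993), E2f6 (0.993), Atxn7 (0.983) and Tent5b (0.980). Those most like the mean of the 4 ligands were Myl12a (0.991), Adra2a (0.988), Unc93b1 (0.975), Gemin6 (0.975) and Map4 (0.972). By rank, Gemin6 and Map4 were less like the ligands, with Spearman rho of 0.54 and 0.60, against 0.83 to 0.94 for the other 3. For the genes like the response genes it was at least 0.94. No gene of the pathway list was among them. All coefficients rest on the same 6 libraries and were picked as the highest among 13617 genes, and no test was made.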

How the data were processed

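RNA-seq libraries of polyA RNA came from 6 dissected tailbuds, grouped by the genotype label (the labels' source field names NSCs, the tissue field and titles tailbud, and the latter was followed). Per the labels and the study's methods, the authors trimmed reads with Trim Galore 0.4.4, mapped them with HISAT2 2.0.5 to GRCm38.p6 and quantified genes in SeqMonk. The deposited values are log2 RPKM, made by the authors from reads per gene, exon length and library size.

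Of 35591 rows, 35555 matched GENCODE M21 by identifier, and 49 repeated identifiers were left out. Read numbers were recovered as the product of RPKM, exon length and inferred library total. They were whole (within 0.02) for 99.0% of 105978 values above the level of a gene without a read. That level was taken as 0.9 read. Genes were kept where 3 libraries reached the level of 10 reads in a library of median size, with 15 reads in all. This left 13617 autosomal genes. Unassigned columns numbered 0.

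The log2 RPKM values were tested without a pseudocount with limma 3.58.1 (R 4.3.3, mean-variance trend, two-sided, Benjamini-Hochberg adjustment), first tested on simulated data. Tables and intervals used Python 3.11.15 and scipy 1.17.1. Exact Poisson 95% intervals of reads cover counting error only. The 10 genes, the pathway and marker lists and the tests were chosen with earlier results of these data known. Named pathway genes were, per class, the 2 with the largest absolute fold change, the most abundant, and any with an unadjusted p under 0.05. A listed pathway gene is not reported here. Alternatives were other scalings, pseudocounts, filters, voom on recovered reads, sex as a covariate, a replicate block, females alone and leaving out each library. The labels do not say whether same-numbered embryos are paired beyond the shared mother of the males.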

Additional observations from a re-analysis of the deposited data

Results flagged for a closer look

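A test of the difference itself called 37 autosomal genes whose genotype effect was not the same in males as in females (limma, adjusted p threshold 0.05), and none of the 10 BMP genes or of the 46 other pathway genes tested was among them. Of these pathway genes, 6 had an unadjusted p under 0.05 (limma), as had 10.8% of all genes, so 6 of 46 is near the share of the whole table. Each male arm is 1 library, so the spread is taken from the females.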

How the results depend on the processing

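No alternative brought the genotype difference of any of the 10 genes past an adjusted p of 0.05 (limma; smallest 0.524). Bmp4 and Smad6 kept their sign in every alternative. For the difference between the male pair and the females, the smallest adjusted p was 0.0567, for Msx1 (limma). With females alone, Bmp5 (-0.14), Id2 (-0.13), Msx1 (0.16) and Msx2 (0.16) changed sign on the log2 scale, 10 genes of the table were called, all lower in MommeD43, and 4 of the 10 BMP genes had groups that did not overlap, as had 5724 of 13617 genes. Voom on recovered reads turned Bmp7 (-0.08). Leaving out single libraries gave log2 fold changes of -0.03 to 0.26 for Bmp2, -0.10 to 0.12 for Bmp5, -0.05 to 0.17 for Bmp7, -0.02 to 0.07 for Id1, -0.14 to 0.18 for Id2, -0.06 to 0.04 for Id3, -0.11 to 0.14 for Msx1, -0.17 to 0.07 for Msx2, -0.08 to 0.74 for Gdf6, -0.31 to 0.49 for Bmpr1b, -0.06 to 0.01 for Twsg1, -0.0045 to 0.06 for Ski and -0.16 to 0.05 for Skil. The number of BMP genes whose groups did not overlap was 1 to 2, and 2 without WT replicate 1 or 2 or MommeD43 replicate 2 or 3, where 3612, 2001, 2354 and 1875 of all 13617 genes did not overlap. Genes differing between the male pair and the females numbered 111 with no filter beyond 1 read, 67 with a filter at 50 reads and 121 with voom, against 37, and the cause was not tested. A replicate block called 0 genes, with 307 at an unadjusted p under 0.05 (limma, against 327 without it). Deviations of same-numbered embryos correlated at -0.03, 0.17 and -0.17. The males, which share a mother, gave -0.03, so these correlations cannot tell whether the numbers pair the embryos. The paper calls the embryos somite-paired, whereas the main fit took no pairs. Bmp4 had an unadjusted p of 0.0636 under the block (limma, adjusted p = 0.999). Low reads limit Bmp8b, Bmpr1b and Nbl1 among the named genes. Nothing says whether embryos were processed together.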

Other observations

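The pathway genes with the largest differences between the male pair and the females were secreted antagonists, named here after their values were seen. Fst, which encodes follistatin, an inhibitor of activins and some BMPs, was at 24.4, 1.76 and 1.82 RPKM in WT and 4.77, 2.49 and 8.42 in MommeD43. The WT male, the library with the highest Msx1, was far above the other 5 libraries. The difference of the genotype effect, males minus females, was -3.71 ± 0.85 (SE) on the log2 scale, with an adjusted p of 0.202 (limma). Grem1, which encodes the antagonist Gremlin, had the opposite pattern. It was at 0.0658, 0.755 and 0.479 RPKM in WT and 0.44, 0.459 and 0.203 in MommeD43, lowest in the WT male, with a difference of 3.72 ± 0.87 (limma, adjusted p = 0.206). Grem1 was low in every library, at most 0.755 RPKM, which limits this value. The co-receptor Rgma was at 10 RPKM in the WT male and 5.81 to 7.64 in the other libraries. Neo1, Dand5 and Acvrl1 were the other genes with an unadjusted p under 0.05, at adjusted p from 0.342 to 0.444 (limma).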
